A study of Homo sapiens with 6 samples.

Results

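Epithelial and mesenchymal identity was followed through 10 genes of the 17177 in the deposited table, taken by symbol with no threshold on their values. The epithelial genes were *KRT8*, *KRT18*, *KRT19*, *EPCAM* and *CDH1*, and the mesenchymal genes were *VIM*, *CDH2*, *TWIST1*, *ZEB1* and *SNAI2*. All 10 were found in the table. RNA-seq had been performed on NCI-H660, an established line of neuroendocrine prostate cancer (NEPC) cells, whose genotype is labelled WT in every library. Cells were treated with pyrvinium pamoate (PP), an anthelmintic drug, or with PBS as the control, and the labels give day 3 for both. Each treatment has 3 libraries of 1 cell line, numbered 1 to 3. The labels give no PP concentration and do not say whether the libraries came from separate cultures. The study's figure legends call the samples independent, whereas its methods speak of duplicates, and the p-values measure the spread between these libraries.

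Epithelial cells hold to each other through cadherin junctions and carry a network of keratin filaments, whereas mesenchymal cells rely on vimentin filaments and a matrix that they lay down themselves. In the epithelial-mesenchymal transition (EMT), transcription factors of the ZEB, SNAI and TWIST families repress epithelial genes such as *CDH1* and favor mesenchymal ones. Prostate luminal cells normally express *KRT8* and *KRT18*, and neuroendocrine tumors of the prostate commonly retain these simple keratins.

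With PP, 4 of the 5 epithelial genes were lower (*KRT8*, *KRT19*, *EPCAM* and *CDH1*) and *KRT18* was higher. Of the 5 mesenchymal genes, *VIM* and *TWIST1* were higher, *CDH2* was lower, and *ZEB1* and *SNAI2* did not pass the test. With a pseudocount of 1, the log2 differences of the called genes ran from -0.58 for *KRT19* to 0.65 for *TWIST1*, and none met the larger cutoff of an unadjusted p under 0.001 and a log2 difference past 1 in either direction. *CDH2*, below 1 FPKM, met it with a pseudocount of 0.1 (-1.34) and with limma-voom on recovered counts (-1.61). The cutoff was met by 5.18% of the genes whose mean FPKM reached 1, among which *CDH2* was not.

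Values are FPKM (fragments counted per kilobase of a gene, relative to library depth), given as mean ± SD of the 3 libraries of a treatment. Differences are given as the PP mean minus the PBS mean of log2(FPKM + 1), a scale on which changes of weakly expressed genes look smaller than they are, and were tested with limma over all genes whose mean FPKM reached 1. Of these 11726 genes, 38.1% were higher and 34.4% were lower with PP at an adjusted p under 0.05, and in 75% the libraries of the treatments did not overlap. Of the 7 identity genes in this fit, 3 were higher, 4 were lower and all 7 had treatments that did not overlap. Since most tested genes moved, the number of identity genes called is not in itself a result about them. *CDH2*, *ZEB1* and *SNAI2* lay under that mean and were tested in a second fit over the 13771 genes whose mean FPKM reached 0.1, in which 66.8% of genes were called and 1 of these 3 genes was.

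The libraries held 29064253 to 32481171 counts, recovered from the steps of the FPKM values. Libraries within a treatment differed by a chi-square of 3.37 to 7.07 per degree of freedom of these counts, above counting noise, and libraries of different treatments by 149 to 170.2. *CHGA*, which encodes the granule protein chromogranin A and marks neuroendocrine cells, was at 43.3 ± 0.870 FPKM with PBS and 24.8 ± 1.09 with PP. Of 11 neuroendocrine markers 9 were tested, and 2 of these were not called. Higher were 2 (22.2%, beside 38.1% of all tested genes), *SCG2* (log2 difference 0.66) and *INSM1* (0.21). Lower were 5 (55.6%, beside 34.4%), *CHGA* (-0.78) among them. Markers of luminal prostate cells were low, and the 5 in the table summed to 1.65 to 2.21 FPKM with PBS and 0.622 to 1.02 with PP.

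Ordered by FPKM, which allows for gene length, the epithelial genes of this set all stood above its mesenchymal genes in both treatments. This depends on the genes chosen, as *FN1*, a mesenchymal matrix gene outside the set, stood above *CDH1* in both treatments. With PBS the order of mean FPKM was *KRT8*, *KRT18*, *EPCAM*, *KRT19*, *CDH1*, *VIM*, *TWIST1*, *CDH2*, *ZEB1* and *SNAI2*, and the only neighbors whose libraries overlapped were *CDH2* and *ZEB1*. With PP, *CDH2* moved to the lowest place and overlapped *SNAI2*, the next above it. The gap between *CDH1*, the lowest epithelial gene, and *VIM*, the highest mesenchymal gene, narrowed. The mean FPKM of *CDH1* was 4.24 times that of *VIM* with PBS and 2.15 times with PP. The gap between *CDH1* and *CDH2* widened, as given below. Among all genes of the table, *KRT8* stood at percentile 99.8 of the mean FPKM in both treatments, *CDH1* at 90.1 with PBS and 86.4 with PP, and *VIM* at 62.6 and 71.3.

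**Figure D1:**
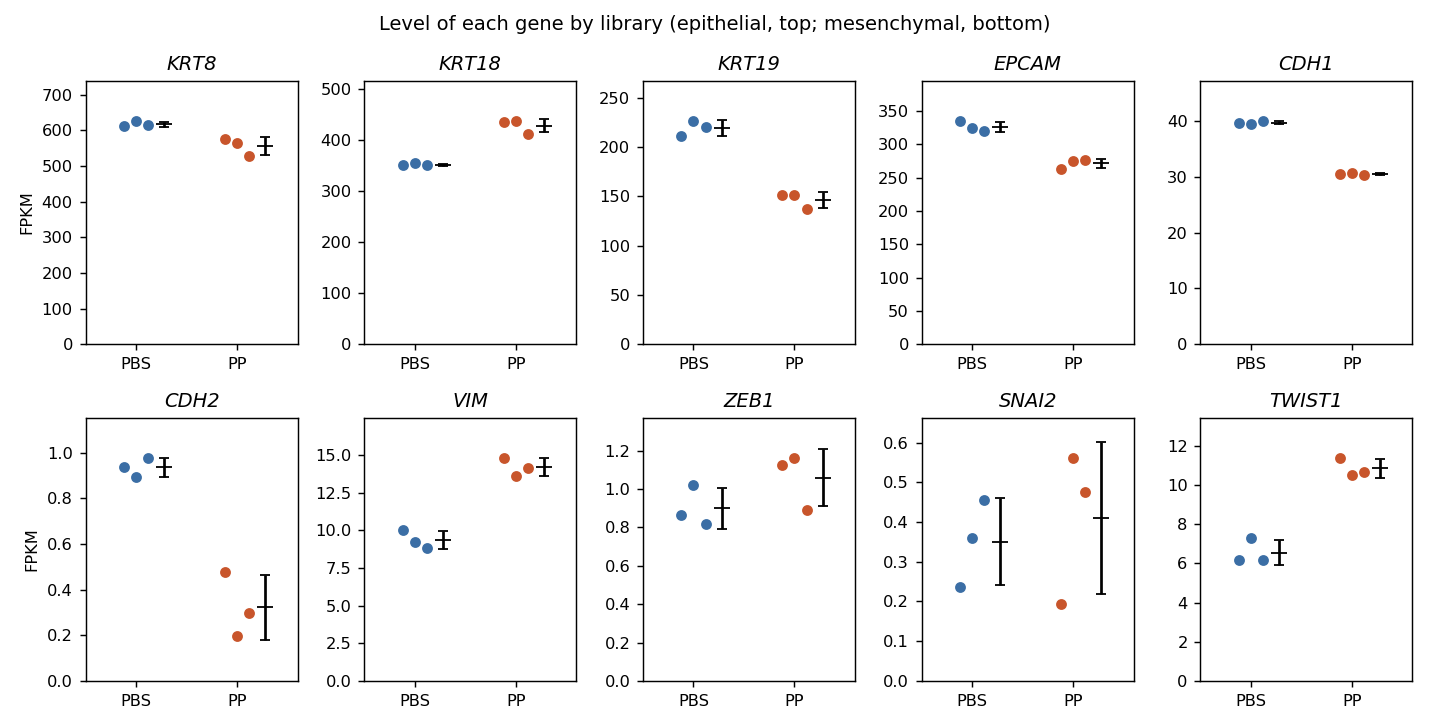
FPKM of the 10 genes (linear axes that start at 0, with a scale of its own for each gene) in the 3 PBS and 3 PP libraries, 1 point per library in replicate order, with the mean ± SD of each treatment in black beside the points. The epithelial genes lie between 30.3 and 626 FPKM and the mesenchymal genes between 0.194 and 14.8 FPKM, with overlapping treatments only for *ZEB1* and *SNAI2*.

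The simple keratins did not move together. *KRT8* and *KRT18* encode the type II and type I chains that pair into the filaments of simple epithelia, and *KRT19* encodes another type I chain of simple epithelia. *KRT8* (chromosome 12, 52897191 to 52949860, GRCh38.p14) was at 612, 626 and 614 FPKM in PBS replicates 1, 2 and 3 and at 575, 564 and 528 in PP replicates 1, 2 and 3. Every PP library was below every PBS library, and the difference was the smallest of the called genes, at -0.15 (95% CI -0.23 to -0.07, limma adjusted p = 0.00292), from 617 ± 7.24 to 556 ± 24.8.

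*KRT18*, the neighbor of *KRT8* on chromosome 12 (52948855 to 52952906), was at 351, 355 and 352 FPKM with PBS and at 436, 438 and 414 with PP. Here every PP library was above every PBS library, opposite to its partner chain. The difference was 0.28 (95% CI 0.21 to 0.35, limma adjusted p = 1.77e-05), a 1.22-fold higher mean FPKM. The ratio of *KRT8* to *KRT18* FPKM within a library was 1.74, 1.76 and 1.75 with PBS and 1.32, 1.29 and 1.28 with PP. The log2 ratio was therefore lower by 0.44 in the mean (log2 difference -0.44), with no overlap between the treatments, at an exact two-sided permutation p of 0.1, the smallest that 3 against 3 libraries can give.

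*KRT19* (chromosome 17, 41523617 to 41528308) was at 211, 226 and 221 FPKM with PBS and at 151, 152 and 137 with PP. The treatments did not overlap, and the gene fell from 219 ± 7.84 to 147 ± 8.17, a log2 difference of -0.58 (95% CI -0.68 to -0.48, limma adjusted p = 1.21e-06). It had the largest decrease of the epithelial genes. The summed FPKM of these 3 keratins was 1174 to 1207 with PBS and 1078 to 1163 with PP, without overlap. The summed FPKM of all genes in the table was also lower, at 318563 to 319175 with PBS and 305365 to 309190 with PP. A lower keratin sum is thus not in itself a result about keratins. RefSeq lists 52 pseudogenes of *KRT8*, 68 of *KRT18* and 5 of *KRT19*, none of them a row of the table, and the spans of *KRT8* and *KRT18* overlap at their ends. How shared reads and strands were counted is not given in the sources used here, so the keratin levels are uncertain to that extent.

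*EPCAM* encodes a surface glycoprotein of epithelial cells that binds neighboring cells and associates with *CLDN7*. *EPCAM* (chromosome 2, 47369311 to 47387020) was at 335, 325 and 319.5 FPKM with PBS and at 264, 274 and 276 with PP. The treatments were separate, and the mean fell by 16.9%, from 326 ± 7.66 to 271 ± 6.64, a log2 difference of -0.27 (95% CI -0.34 to -0.20, limma adjusted p = 3.25e-05). Its partner *CLDN7*, a claudin, was lower as well, at 407 ± 13.0 and 269 ± 9.20 FPKM, a log2 difference of -0.60 (limma adjusted p = 1.95e-07).

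*CDH1* encodes E-cadherin, the adhesion receptor of epithelial adherens junctions. *CDH1* (chromosome 16, 68737292 to 68835537) was at 39.7, 39.6 and 40.0 FPKM with PBS and at 30.6, 30.7 and 30.3 with PP. Libraries of the same treatment lay close together, with SDs of 0.228 and 0.199 around means of 39.8 and 30.5. The difference was -0.37 (95% CI -0.45 to -0.29, limma adjusted p = 4.24e-06), a mean lower by 23.2% (percent change -23.2), and it stayed at -0.37 whichever library was left out.

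The catenins tie the cadherin tail to actin, and they did not follow *CDH1* as a set. *CTNNA1* (alpha-catenin) was higher, at 123 ± 2.60 FPKM with PBS and 149.6 ± 3.94 with PP, a log2 difference of 0.28 (limma adjusted p = 3.51e-05). *CTNNB1* (beta-catenin, which also acts in Wnt signaling) was at 123 ± 6.39 and 118 ± 6.94 FPKM, and its interval included no difference (-0.05, 95% CI -0.16 to 0.06, limma adjusted p = 0.399). *CTNND1* (p120-catenin, which stabilizes cadherin at the membrane) was at 2.79 ± 0.511 and 2.59 ± 0.239 FPKM (95% CI of the log2 difference -0.29 to 0.14, limma adjusted p = 0.511). *JUP* (plakoglobin, shared by adherens junctions and desmosomes) was at 28.3 ± 1.63 and 24.9 ± 1.601 FPKM, a log2 difference of -0.18 (limma adjusted p = 0.0153). The call on *JUP* was lost without PBS replicate 1, PBS replicate 2 or PP replicate 3, with limma adjusted p = 0.0573, 0.0509 and 0.0568. RefSeq places other genes over *CTNND1* (*TMX2-CTNND1*) and *CTNNA1* (*LRRTM2* among them). How shared reads were counted is not given, so the levels of *CTNND1* and *CTNNA1* are uncertain to that extent.

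*VIM* encodes vimentin, the main intermediate filament of mesenchymal cells. *VIM* (chromosome 10, 17228241 to 17237593) was at 10.04, 9.22 and 8.86 FPKM with PBS and at 14.8, 13.6 and 14.2 with PP. Every PP library was above every PBS library, and the mean rose 1.52-fold, from 9.37 ± 0.608 to 14.2 ± 0.593, a log2 difference of 0.55 (95% CI 0.43 to 0.68, limma adjusted p = 8.51e-06). The values rest on 583 to 671 counts with PBS and 889 to 1002 with PP. In bulk libraries, a few cells with much *VIM* and many cells with little cannot be told apart, and nor can fewer cells and less RNA per cell. RefSeq places antisense genes over the ends of *VIM*, *CDH2* and *ZEB1*, and a long noncoding RNA gene (19106928 to 19113245) over an end of *TWIST1*. Since how strands and shared reads were counted is not given, reads of these overlapping genes cannot be told apart from those of the named genes.

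*TWIST1* encodes a basic helix-loop-helix factor that drives mesenchymal programs in development. *TWIST1* (chromosome 7, 19113047 to 19117636) was at 6.18, 7.30 and 6.16 FPKM with PBS and at 11.4, 10.5 and 10.7 with PP. The treatments were separate by more than the spread within either, and the mean rose 1.66-fold, from 6.55 ± 0.653 to 10.9 ± 0.472, a log2 difference of 0.65 (95% CI 0.51 to 0.80, limma adjusted p = 9.23e-06). The counts were 312 to 349 with PBS and 517 to 570 with PP.

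*CDH2* encodes N-cadherin, the cadherin of neural and mesenchymal cells. *CDH2* (chromosome 18, 27932879 to 28177130) was low in every library, at 0.937, 0.893 and 0.977 FPKM (133, 120 and 140 counts) with PBS and at 0.476, 0.195 and 0.2995 (67, 27 and 45 counts) with PP. It fell in all 3 PP libraries, opposite to *VIM* and *TWIST1*, and its PP libraries differed from each other more than its PBS libraries did (SD 0.142 and 0.0423). The log2 difference was -0.55 (95% CI -0.74 to -0.37, limma adjusted p = 0.000238) with a pseudocount of 1, which weighs heavily on a gene below 1 FPKM. With a pseudocount of 0.1 the log2 difference was -1.34, with limma-voom on the recovered counts it was -1.61 (95% CI -2.18 to -1.04, adjusted p = 1.39e-05) and the PBS mean FPKM was 2.89 times the PP mean.

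*ZEB1* encodes a zinc finger repressor of *CDH1*. *ZEB1* (chromosome 10, 31318417 to 31529804) was at 0.862, 1.02 and 0.816 FPKM with PBS and at 1.12, 1.16 and 0.889 with PP, on 209 to 245 and 239 to 288 counts. PP replicate 3 lay within the PBS range, and the difference of 0.12 did not pass the test (95% CI -0.06 to 0.29, limma adjusted p = 0.205, and 0.0722 to 0.448 over the alternatives). *SNAI2* encodes Slug, another repressor of *CDH1*, and was at 0.237, 0.360 and 0.455 FPKM with PBS and at 0.194, 0.562 and 0.476 with PP, on 13 to 37 counts per library. PP replicate 1 was the lowest and PP replicate 2 the highest of all 6 libraries, and a difference was not detectable at this depth (0.06, 95% CI -0.18 to 0.30, limma adjusted p = 0.658). With limma-voom the interval of *SNAI2* ran from -0.77 to 1.05.

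**Figure D2:**
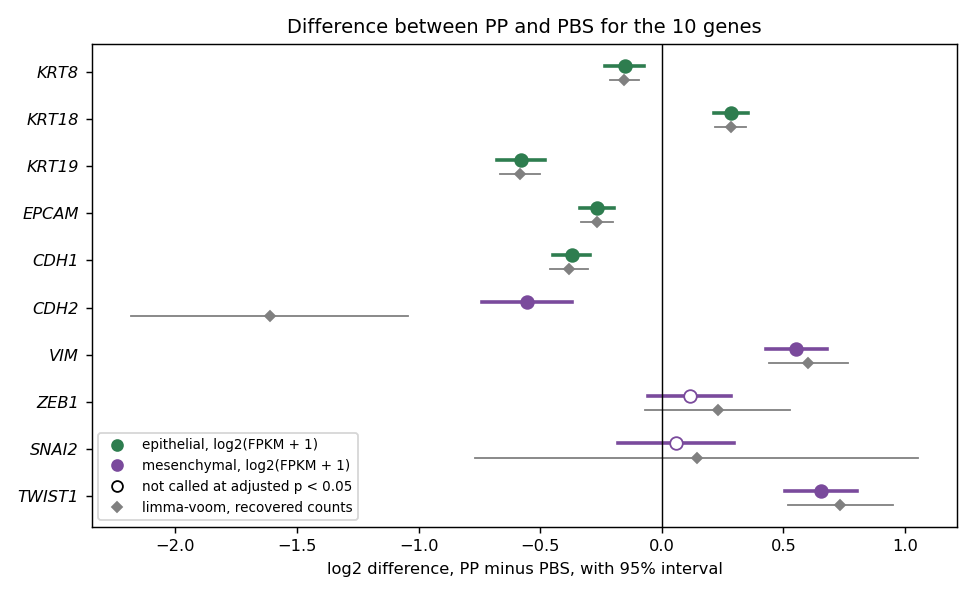
Log2 difference of each gene (PP minus PBS, log2(FPKM + 1) scale) with its 95% confidence interval from limma, open circles marking genes not called, and in grey the estimate and interval from limma-voom on recovered counts. The estimates nearly coincide for *KRT8*, *KRT18*, *KRT19*, *EPCAM* and *CDH1*, and part for *CDH2* (-0.55 and -1.61), a gene below 1 FPKM.

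Ratios within a library do not depend on the scaling between libraries. The log2 ratio of *CDH1* to *VIM* was 2.09 ± 0.0973 with PBS and 1.10 ± 0.0637 with PP, a difference of -0.98. That of *EPCAM* to *VIM* went from 5.12 ± 0.0590 to 4.25 ± 0.0920, a difference of -0.87. Both ratios of an epithelial gene to *VIM* were thus lower in all 3 PP libraries, and they share the rise of *VIM*.

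The cadherin pair went the other way. The log2 ratio of *CDH1* to *CDH2* was 5.41 ± 0.0574 with PBS and 6.66 ± 0.647 with PP, a difference of 1.24, since *CDH2* fell by a larger factor than *CDH1*. The linear ratio was 42.4, 44.3 and 41.0 with PBS and 64.2, 158 and 101 with PP. With a pseudocount of 1 the log2 difference shrank to 0.18. The log2 ratio of *ZEB1* to *CDH1* was -5.47 ± 0.174 with PBS and -4.86 ± 0.201 with PP, a difference of 0.61, in which *CDH1* passed the test and *ZEB1* did not. None of these ratios overlapped between treatments, and each had an exact two-sided permutation p of 0.1, the smallest possible.

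**Figure D3:**
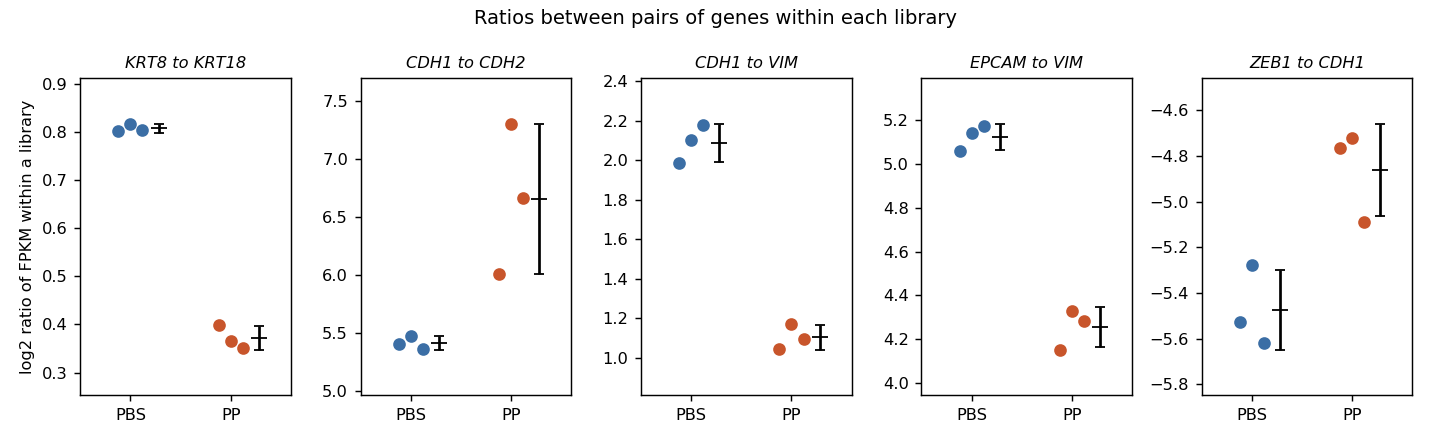
Log2 ratios of pairs of the genes within each library, 1 point per library, with the mean ± SD of each treatment in black beside the points and a log2 axis of its own for each pair. The ratios of *KRT8* to *KRT18*, *CDH1* to *VIM* and *EPCAM* to *VIM* are lower in all 3 PP libraries, and those of *CDH1* to *CDH2* and *ZEB1* to *CDH1* are higher.

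The lists of related genes were described by counts, and no list was tested. Of 33 tested genes of epithelial junctions, the list that holds *CDH1*, 8 were higher (24.2%, beside 38.1% of all tested genes), 18 were lower (54.5%, beside 34.4%) and 7 were not called, with a median log2 difference of -0.17 beside 0.02 over all tested genes. *CLDN4*, a sealing claudin of tight junctions, went from 408 ± 21.1 to 208 ± 16.1 FPKM (log2 difference -0.97), *NECTIN1*, a nectin of adherens junctions, from 4.21 ± 0.191 to 1.73 ± 0.0511 (-0.93), and *F11R*, the junctional adhesion molecule A, from 52.1 ± 1.83 to 30.5 ± 1.04 (-0.76). *CLDN1* rose from 34.6 ± 1.15 to 58.4 ± 1.98 FPKM (0.74), and so did the scaffolds *TJP1* (ZO-1, 0.43) and *AFDN* (afadin, 0.34). The summed FPKM of the junction genes was 1971 to 2072 with PBS and 1528 to 1620.1 with PP.

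Among 9 tested keratins, 6 were higher (66.7%, beside 38.1% of all tested genes) and 3 were lower (33.3%, beside 34.4%), with a median of 0.60. Without *KRT8*, *KRT18* and *KRT19* the counts were 5 and 1. The summed FPKM of the keratin list was lower with PP, at 1211 to 1298 beside 1420 to 1457 with PBS. Without *KRT8*, *KRT18* and *KRT19* the sum was 132 to 135 with PP beside 245 to 250 with PBS. *KRT15*, a keratin of basal and progenitor cells, fell most, from 200.9 ± 2.44 to 45.9 ± 1.58 FPKM (log2 difference -2.11, limma adjusted p = 5.28e-11), more than *KRT19* did. *KRT80* rose from 24.0 ± 0.242 to 49.5 ± 0.837 FPKM (1.01), *KRT7*, a keratin of simple epithelia, from 9.42 ± 0.167 to 16.4 ± 0.414 (0.74), and *KRT81*, a hair keratin, from 0.847 ± 0.1204 to 3.31 ± 0.231 (1.22). *KRT81* has near-identical hair keratin relatives, so its reads could be split among them. The basal keratins *KRT5* and *KRT14* had at most 7 counts and 1 count in any library.

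Epithelial surface and trafficking genes, the list that holds *EPCAM*, had 20 genes tested and a median of -0.29. Of these, 3 were higher (15%, beside 38.1% of all tested genes), 13 were lower (65%, beside 34.4%) and 4 were not called. *MUC1*, a mucin of the apical surface, went from 21.8 ± 0.948 to 8.82 ± 1.17 FPKM (-1.22). *ST14*, the protease matriptase, went from 109 ± 3.37 to 47.2 ± 2.38 (-1.19). *MAL2*, an apical trafficking protein, rose from 217 ± 1.26 to 328 ± 13.3 FPKM (0.59), with *LAD1* (0.50) and *MYO5B* (0.19).

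Of 14 tested regulators of the epithelial state, 5 were higher (35.7%), 6 were lower (42.9%) and 3 were not called, shares near those of all tested genes (38.1% and 34.4%), with a median of -0.04. *ESRP1*, an epithelial splicing factor, rose from 78.1 ± 1.54 to 147 ± 5.44 FPKM (0.90, limma adjusted p = 1.05e-08), and *KLF5* (0.85), a transcription factor of epithelia, rose too. *OVOL2*, a repressor of EMT factors, went from 21.0 ± 2.24 to 13.2 ± 2.31 FPKM (-0.64, limma adjusted p = 0.000481), with *TFCP2L1* (-0.62) and *ELF3* (-0.38) also lower. *GRHL2*, an activator of *CDH1*, was at 13.7 ± 0.285 and 14.0 ± 0.606 FPKM (95% CI of the log2 difference -0.07 to 0.13, limma adjusted p = 0.579), and *OVOL1* at 2.51 ± 0.188 and 2.24 ± 0.248 (95% CI -0.29 to 0.05, limma adjusted p = 0.188). *ESRP2* was at 5.46 ± 0.221 and 4.88 ± 0.107 FPKM (-0.14, limma adjusted p = 0.0431), a call lost with the replicate block (adjusted p = 0.0842), with no filter (0.0555) and without any library other than PBS replicate 1 (0.0548 to 0.130).

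Of the EMT transcription factors, 7 of 19 reached the first fit, with a median of -0.13. Of these, 3 were higher (42.9%, beside 38.1% of all tested genes) and 4 were lower (57.1%, beside 34.4%). Beside *TWIST1*, *FOXC1* rose from 10.4 ± 0.335 to 16.4 ± 0.542 FPKM (0.60) and *GSC* from 1.55 ± 0.271 to 2.53 ± 0.290 (0.47). *SNAI1*, which encodes Snail, the relative of Slug, was lower, from 3.21 ± 0.531 to 2.12 ± 0.374 FPKM (-0.43, limma adjusted p = 0.00443), as was *TCF3* (-0.48). *ZEB2*, the relative of *ZEB1*, was below the filter of both fits, with 7, 4 and 8 counts with PBS and 12, 22 and 17 with PP.

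Of the mesenchymal cytoskeleton and matrix genes, 14 of 44 reached the first fit, *VIM* included, with a median of -0.28. Of these, 4 were higher (28.6%, beside 38.1% of all tested genes), 9 were lower (64.3%, beside 34.4%) and 1 was not called. *FN1*, the matrix glycoprotein fibronectin, fell from 79.4 ± 2.86 to 32.4 ± 0.612 FPKM (-1.27), *COL4A2*, a basement membrane collagen, from 14.6 ± 0.622 to 4.89 ± 0.125 (-1.41), and *LOXL2*, a collagen cross-linking enzyme, from 3.90 ± 0.371 to 2.21 ± 0.265 (-0.61). *COL1A1*, a fibrillar collagen, rose from 3.30 ± 0.133 to 4.16 ± 0.118 (0.26). *TAGLN*, an actin-binding protein of smooth muscle, was at 1.57 ± 0.228 and 2.09 ± 0.386 FPKM with overlapping treatments (limma adjusted p = 0.0384, lost with the replicate block at 0.0542, with no filter at 0.0918 and without PBS replicate 1 or 3 or PP replicate 1 or 2 at 0.0559 to 0.142). With the lower filter of 0.1, 15 genes of this list were lower.

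TGF-beta is a classical inducer of EMT. Of 18 tested ligands, receptors and SMADs, 4 were higher (22.2%, beside 38.1% of all tested genes) and 8 were lower (44.4%, beside 34.4%). Another 6 were not called, and the median was -0.10. *TGFB1*, a ligand, fell from 6.62 ± 0.159 to 1.54 ± 0.217 FPKM (-1.59, limma adjusted p = 2.52e-08). *SMAD6*, an inhibitory SMAD, fell from 2.03 ± 0.0965 to 0.716 ± 0.0455 (-0.82) and *SMAD3*, a signal transducer, from 4.99 ± 0.323 to 3.44 ± 0.119 (-0.43), while the shared transducer *SMAD4* rose from 17.7 ± 0.303 to 27.1 ± 1.10 (0.58).

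**Figure D4:**
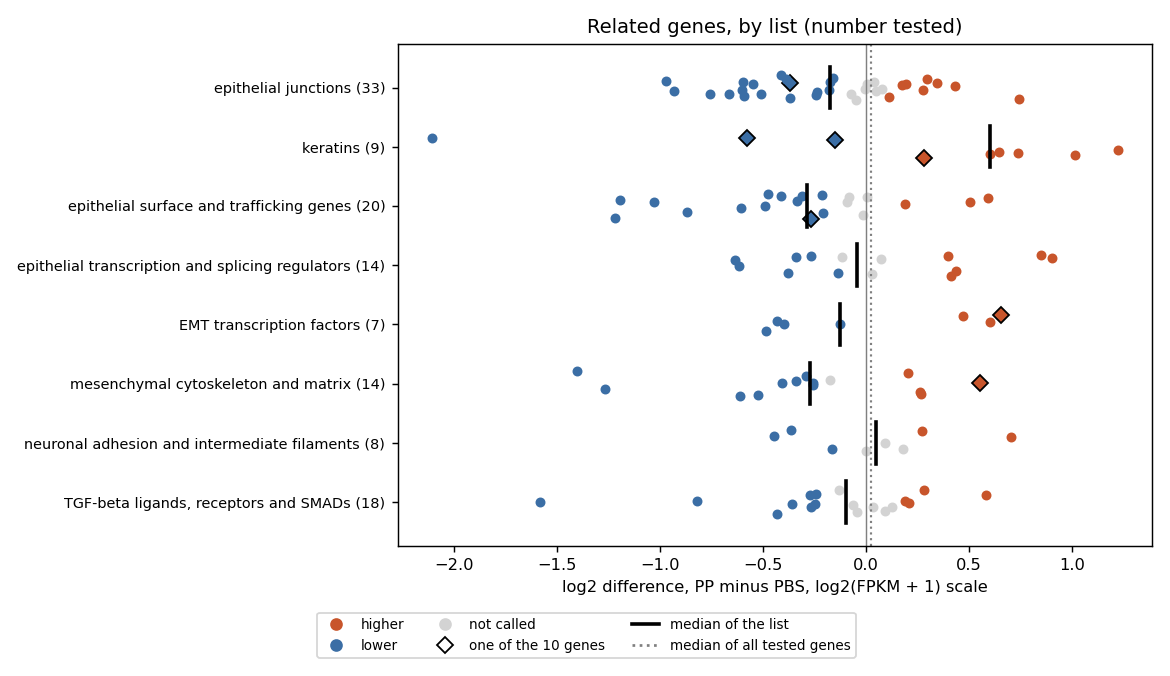
Log2 differences (PP minus PBS, log2(FPKM + 1) scale) of the tested genes of 8 related lists, 1 point per gene, with the median of each list as a bar and diamonds for the identity genes. The medians of the junction, surface and mesenchymal lists lie at -0.17, -0.29 and -0.28, and that of the keratins at 0.60.

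Markers of fibroblasts, leukocytes and endothelial cells, which usually express *VIM*, were measured in the same libraries. Of 9 fibroblast markers, 1 was tested and higher (*COL1A1*), 8 had a mean under 1 FPKM and 7 under 0.1, and the summed FPKM was 4.11 to 4.57 with PBS and 4.51 to 4.95 with PP, most of it from that gene. The defining genes *PDGFRA*, *PDGFRB* and *DCN* had means of at most 0.0491 FPKM. Leukocyte markers (8 genes) summed to 2.77 to 3.43 with PBS and 2.20 to 3.09 with PP, and 2 of them were tested and not called. These were *CD14*, at 1.44 ± 0.0705 FPKM with PBS and 1.47 ± 0.265 with PP, and *CD68*, at 1.41 ± 0.117 and 1.09 ± 0.217. *PTPRC* was at no more than 0.00848 FPKM in either mean, and *CD3D* was at 0 in all 6 libraries. Endothelial markers (5 genes, of which only *CDH5* was tested and was lower, at -0.39) summed to 4.30 to 4.77 and 2.98 to 3.38, with *PECAM1* at no more than 0.0117. The part of such cells in the levels of *VIM* and *TWIST1* was not tested.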

How the data were processed

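RNA-seq of NCI-H660 cells was analysed, with 3 PBS and 3 PP libraries grouped by the treatment label. Per the labels, libraries were made with a stranded mRNA kit and sequenced as paired-end reads on a HiSeq X series instrument. The submitters' processing notes name fastp, HISAT2, HTSeq and GRCh38, whereas the study's methods name Bowtie, hg19, RSEM, Cufflinks and HTSeq, and which of these gave the deposited values is not stated. The authors deposited 1 table of FPKM values for 17177 gene symbols, with no gene identifiers or coordinates. Coordinates printed here were looked up by symbol in RefSeq (GRCh38.p14), which held all 10 genes.

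Whole counts were recovered from the FPKM steps for 100% of genes (tolerance 0.01 of a count), and the totals give the depth. Log2(FPKM + 1) values were fitted with limma (version 3.58.1, R 4.3.3), using lmFit and an eBayes step with an intensity trend, over genes whose mean FPKM reached 1, with Benjamini-Hochberg adjustment over all genes tested. The cutoff of an unadjusted p under 0.001 with a log2 difference above 1 or below -1 follows the study's methods. A gene was called at an adjusted p under 0.05, and genes between 0.1 and 1 FPKM were read from a second fit. Ratios were compared by exact permutation over libraries with Python 3.11.15 and scipy 1.17.1. The steps were tested on simulated data, in which 43 of 50 genes changed by 0.3 on the log2 scale and all 50 changed by 0.6 were found. There, 16 of 11529 unchanged genes were called, and fitted differences were in the median 0.90 to 0.91 of the true ones. The simulation changed a small part of the genes and set 1 spread between replicates for all. In the real libraries most tested genes moved, so these rates do not carry over to them.

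The 10 genes and the 13 lists of related genes were chosen with earlier results of these data known, and the lists were written from general knowledge. Named are the 10 genes, up to 3 called genes at each end of each list, 12 partners and regulators whatever their values, and the 3 genes whose profile was most like that of *CDH1* and of *VIM*. Marker genes named for having few or no counts, and *NCAM1*, *CD14* and *CD68*, are from the lists and were picked after their values were seen. Some genes that this rule names are not reported here. Alternatives varied the pseudocount, filter, scaling, eBayes trend, model (limma-voom), replicate block and libraries included. No sequence was printed, as the table holds expression levels of whole genes.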

Additional observations from a re-analysis of the deposited data

How the results depend on the processing

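With all libraries and without each in turn, and under every alternative that tested all 10 genes, 3 identity genes were higher and 5 were lower; a filter at a mean FPKM of 5 leaves *CDH2*, *ZEB1* and *SNAI2* untested. Leaving out 1 library at a time gave 4152 to 4266 genes higher and 3750 to 3941 lower, and a replicate block gave 4260 and 3878, beside 4464 and 4032. Libraries with the same number did not deviate together (r of -0.21, -0.01 and -0.13). With 3 libraries per treatment, a weak pairing of the samples by number could be missed. The block ended the calls on *ESRP2* and *TAGLN*. The cutoff was met by 263 genes higher and 344 lower, by 397 and 559 with limma-voom on recovered counts, and by 531 lower with a pseudocount of 0.1. The log2 ratio of *CDH1* to *CDH2* differed by 0.18 with a pseudocount of 1, beside 1.24, since the pseudocount weighs on *CDH2*. Without 1 library the log2 difference ran from -0.02 to 0.17 for *SNAI2* (-0.00535 and -0.02164 without PBS replicate 1 and PP replicate 2) and from -0.14 to 0.03 for *CTNND1* (0.03462 without PBS replicate 3), neither of which was called. Counts over lists moved with the filter, which changes the genes tested: lower mesenchymal genes numbered 9, 15 at a mean FPKM of at least 0.1 and 17 with no filter, lower keratins 3 and 5 with no filter, and lower TGF-beta genes 8 and 3 at a mean FPKM of at least 5. Higher mesenchymal genes numbered 4, but 2 to 3 whichever library was left out (2 without PBS replicate 3 or PP replicate 1). At a mean FPKM of at least 5 they numbered 1. Another scaling, by median ratios, moved the median of all genes by -0.01. For *CDH2*, *ZEB1* and *SNAI2*, at 13 to 288 counts per library, depth limits the precision.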

Other observations

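Neuronal adhesion and intermediate filament genes, the list in which *CDH2* also stands, had 8 genes tested, with a median log2 difference of 0.05. Of these, 2 were higher (25%, beside 38.1% of all tested genes), 3 were lower (37.5%, beside 34.4%) and 3 were not called. The number higher was 1 without PBS replicate 2 or PP replicate 1, as the call on *PRPH*, which encodes the filament peripherin, was lost (limma adjusted p = 0.0714 and 0.0601, and 0.0545 with limma-voom, beside 0.0172). With a filter of 0.1 or none, 6 genes were lower. *SYNM*, which encodes the filament protein synemin, a partner of vimentin, rose from 17.7 ± 0.571 to 29.4 ± 0.383 FPKM (0.70). *NRCAM*, a neuronal adhesion molecule, fell from 10.3 ± 0.256 to 7.29 ± 0.293 (-0.45) and *INA*, the filament alpha-internexin, from 28.3 ± 0.573 to 21.7 ± 1.03 (-0.37). *NCAM1*, a neural adhesion molecule and neuroendocrine marker, was at 15.4 ± 0.509 and 15.4 ± 0.281 FPKM (limma adjusted p = 0.997).

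Over the 6 libraries, the genes whose log2(FPKM + 1) values were most like those of *CDH1* were *FBLN7* (Pearson's r = 0.9999), *PLAU* (0.99983) and *VAMP8* (0.99979). Genes much like *VIM* were *TAF1A* (0.99901) and *MRPS22* (0.99874). All points share the split between PBS and PP, and 2367 genes had an r above 0.95 with *CDH1* and 2089 with *VIM*, so these are a description and do not set the genes apart.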
